A study of Homo sapiens with 11 samples.

Results

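The chromatin map of CUL4A, the scaffold of a ubiquitin ligase, was compared with that of CDT2, a substrate receptor that can be mounted on it, in U2OS cells, a human osteosarcoma cell line. The members are all regions of the CUL4A list and of the CDT2 list on chromosomes 1 to 22: 55717 CUL4A islands and 27704 CDT2 peaks, together 83421 of the 399199 regions on these chromosomes in the 8 lists of the series. An island is a run of 200 bp windows with more reads than the background, joined by the caller SICER across gaps of up to 600 bp. CDT2 peaks came from a different caller, without this grid.

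Each list rested on 1 sample of asynchronous cells, with no replicate, so the spread between samples could not be measured for any value. CUL4A was immunoprecipitated from U2OS cells with intact RepID, the chromatin protein whose loss the study examines. For CDT2, the series description names U2OS cells that overexpress full-length RepID with a FLAG tag, whereas the study's text names wild-type U2OS, and a difference between the lists cannot be told apart from a difference between these cells. The other U2OS lists were replication origins from short nascent strands and peaks of the histone marks H3K4me3 and H3K9me3. Lists from HCT116 cells, a colon carcinoma line, are used in places. They are origins of cells with RepID knocked out (RepID KO), and SKP2 peaks of wild-type (WT) and of RepID KO cells. None of the lists gives a library total, so the depth behind each list is unknown.

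CUL4A holds together the CRL4 ligases: its one end binds the RING protein that brings the ubiquitin-loaded enzyme, and its other end binds the adaptor DDB1, which carries one of many exchangeable receptors, the DCAFs. CDT2, also called DTL, is the DCAF that reads substrates bound to the sliding clamp PCNA on replicating or damaged DNA, and it directs the licensing factor CDT1, the cyclin-dependent kinase inhibitor p21 and the histone methyltransferase SET8 to degradation. H3K4me3 marks active promoters and open chromatin that tends to replicate early, whereas H3K9me3 marks heterochromatin that tends to replicate late.

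CUL4A covered far more of the genome than CDT2. The islands had a median width of 2000 bp, covered 5.39% of the length of chromosomes 1 to 22 and numbered 19.3 per Mb. CDT2 peaks had a median width of 554 bp, covered 0.618% and numbered 9.62 per Mb. Most of CDT2 lay on CUL4A, and most of CUL4A lay apart from CDT2. At least 1 bp of a CDT2 peak was found in 14445 islands, which is 25.9% (Wilson 95% confidence interval 25.6 to 26.3%), and at least 1 bp of an island in 16244 CDT2 peaks, which is 58.6% (58.1 to 59.2%). The intervals here and below cover counting error only and treat neighbouring regions as independent. Per length, CDT2 centres stood at 1.04 per 10 kb inside islands and 0.0423 per 10 kb outside them.

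The strength of a region in its own list moved with the presence of the other protein. The authors' score has no stated scale, so each list was ranked by it and divided into 5 classes of equal size. From the weakest to the strongest class of islands, the share with CDT2 went from 17.6% (16.9 to 18.3%) to 41.3% (40.4 to 42.3%). From the weakest to the strongest class of CDT2 peaks, the share with CUL4A went from 41.8% (40.5 to 43.1%) to 78.8% (77.7 to 79.9%). Even in the strongest class, then, 1175 of 5541 CDT2 peaks met no island. The median CDT2 score was 30.1 with CUL4A and 24.4 without, and the median island score was 88 with CDT2 and 56 without. Stronger regions were also wider. From the weakest to the strongest class, median width went from 800 to 5400 bp for islands and from 439 to 803 bp for CDT2 peaks. From the narrowest to the widest class, CDT2 went from 24.8% to 34.0% of islands and CUL4A from 41.8% to 72.2% of CDT2 peaks. The part of width in the trend with score was not tested.

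Regional density was counted in 2894 bins of 1 Mb. A bin had a median of 11 CUL4A islands (quartiles 4 and 28, highest 112) and 7 CDT2 peaks (quartiles 3 and 14, highest 100). Both proteins were present in 2555 bins, CUL4A alone in 120 and CDT2 alone in 35. A bin with no CDT2 peak held at most 22 islands, and a bin with no island held at most 7 CDT2 peaks. Across bins the counts had a Spearman correlation of 0.814 and a Pearson r of 0.673. This is a description over bins that share mappability, copy number and the position of unassembled sequence, and 160 of them held no region of any list. Within single chromosomes the Spearman correlation ranged from 0.542 on chromosome 8 to 0.893 on chromosome 15.

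The bins richest in one protein were in part the richest in the other. Of the 289 bins with the most islands and the 289 with the most CDT2 peaks, 133 were in both sets. Each set is 289 of 2894 bins, a smaller share than the 133 of 289 in common. At the extreme, the 29 richest bins of each list, out of 2894, had 2 in common. Across bins, CUL4A followed the density of the histone marks and origins more closely than CDT2 did. For CUL4A, the Spearman correlation was 0.859 with origins, 0.806 with H3K4me3 and 0.841 with H3K9me3, and for CDT2 it was 0.781, 0.655 and 0.766. CDT2 had fewer regions per bin, and the part of this in its lower values was not tested. Across the 22 chromosomes the order for origins was the opposite, with Spearman correlations of 0.874 for CUL4A and 0.902 for CDT2. For H3K4me3 the values were 0.910 and 0.730, and for H3K9me3 0.875 and 0.848. By Pearson r the H3K9me3 order was also the opposite, at 0.832 and 0.871.

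The receptor became scarcer relative to the scaffold where origins were dense. When the bins with a region of any U2OS list were ordered by origin count into 5 classes, mean CUL4A went from 3.57 to 49.4 islands per bin and mean CDT2 from 2.65 to 19.4 peaks, so that the ratio of CDT2 to CUL4A went down from 0.741 to 0.393. CDT2 per origin also went down over these classes, from 0.387 to 0.205, whereas CUL4A per origin was 0.522 in both the lowest and the highest class and 0.353 in the middle class. The origin count both orders these bins and divides these values, so the ordering itself can lower them. From the lowest to the highest class by H3K9me3, CDT2 per origin went from 0.236 to 0.244 and CUL4A per origin from 0.293 to 0.562. By H3K4me3 they went from 0.221 to 0.229 and from 0.255 to 0.587. Ordered by H3K4me3 instead, the ratio of CDT2 to CUL4A went from 0.866 to 0.390, and ordered by H3K9me3 from 0.806 to 0.434. The ratio thus moved the same way with all 3 orderings, which share bins and are not independent.

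Chromosomes differed widely in how much CDT2 they carried for their CUL4A. Density was lowest for both on chromosome 13, with 6.90 islands and 2.04 CDT2 peaks per Mb. Per Mb of full length, CUL4A was densest on chromosome 19, the most gene-rich chromosome, with 51.1 islands, where CDT2 stood at 19.98 per Mb. Full length includes region-free sequence, and this lowers the densities of some chromosomes more than others. The largest region-free stretch was 16052800 bp on chromosome 22 and 3124215 bp on chromosome 19. The median gap between islands was smallest on chromosome 22, at 5200 bp. CDT2 was densest on chromosome 20, with 20.3 peaks per Mb beside 33.9 islands per Mb. Across the 22 chromosomes, which differ in copy number in this aneuploid line, the densities had a Pearson r of 0.824 and a Spearman correlation of 0.741, with no test.

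The ratio of CDT2 peaks to islands had a median of 0.460 over chromosomes and ran from 0.296 on chromosome 13 to 0.969 on chromosome 5. Chromosome 5 stood apart from all others, since the next highest value was 0.677 on chromosome 12. It held 2233 CDT2 peaks and 2304 islands. Of its islands, 36.3% had CDT2, the highest share of any chromosome, and of its CDT2 peaks 41.4% had CUL4A, the lowest. Its CDT2 peaks also met H3K9me3 least often, at 37.0%. At the other end, chromosomes 22 and 19 had the highest shares of CDT2 on CUL4A, 79.0% and 78.7%, with ratios of 0.313 and 0.391.

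**Figure D1:**
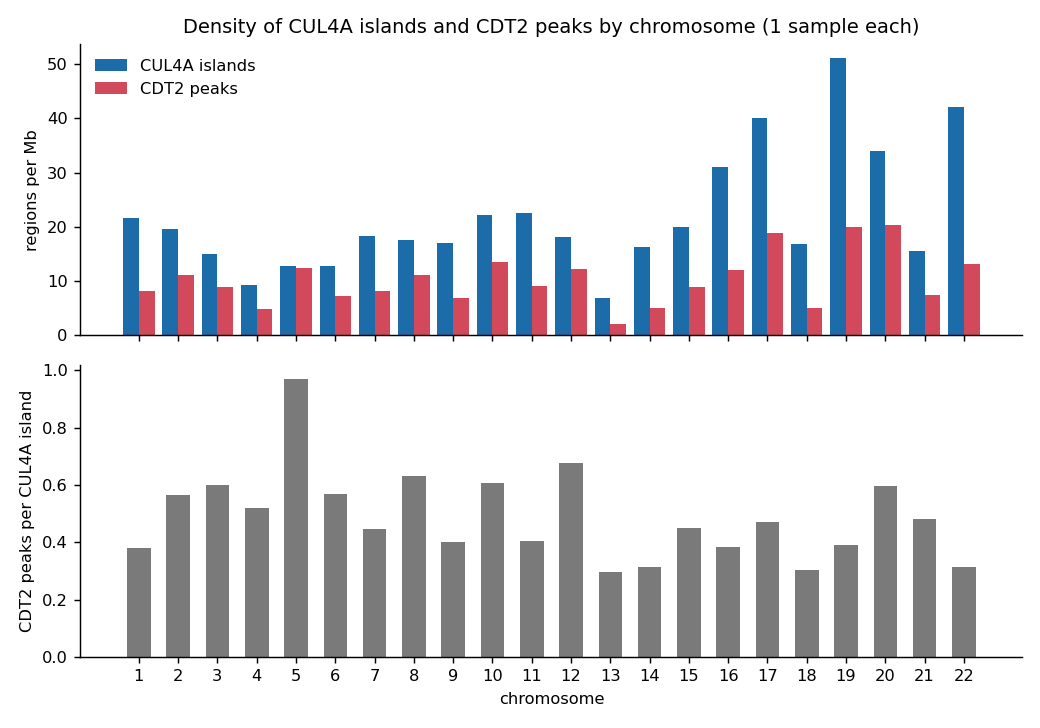
Upper panel: regions per Mb of full length, region-free sequence included, on chromosomes 1 to 22 for CUL4A islands and CDT2 peaks, 1 sample each. Lower panel: CDT2 peaks per CUL4A island, which runs from 0.296 on chromosome 13 to 0.969 on chromosome 5 and does not follow the height of the upper bars.

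The balance of the pair differed along the chromosome. The largest stretch of each chromosome without a region of any list was taken as a landmark, since the lists give no centromere positions. Within 2 Mb of it, CUL4A had 20.8 islands and CDT2 21.1 peaks per Mb, a ratio of 1.01. Within 2 Mb of chromosome ends the densities were 53.9 and 16.9 per Mb, a ratio of 0.313. Elsewhere they were 19.6 and 9.71 per Mb, a ratio of 0.496.

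The CDT2 peaks beside these stretches were also unlike the others in what they met. CUL4A was found at 46.4% of them (44.0 to 48.8%), against 74.8% (72.4 to 77.1%) at chromosome ends and 58.6% (58.0 to 59.2%) elsewhere. H3K9me3 was found at 26.2% of them (24.1 to 28.4%), against 44.6% (41.9 to 47.3%) and 44.5% (43.9 to 45.1%).

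Single bins at the extremes are given as a description, since a choice by the number of islands or of CDT2 peaks fixes on which side their ratio falls. The bins with the most CUL4A were on chromosome 9 from 138000001 to 139000000 with 112 islands and 15 CDT2 peaks, chromosome 2 from 241000001 to 242000000 with 105 and 22, chromosome 17 from 79000001 to 80000000 with 105 and 18, and chromosome 5 from 1000001 to 2000000 with 104 and 18, in hg19 coordinates of the deposited lists. Between 83.3% and 100% of the CDT2 peaks in these 4 bins met an island. Each of these bins was above the upper quartile of CDT2 per bin as well, and CDT2 was low there only beside the number of islands.

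The bins with the most CDT2 follow. On chromosome 11 from 118000001 to 119000000, 100 CDT2 peaks lay among 36 islands, and 36% of the peaks met one. On chromosome 20, the bins from 30000001 to 31000000 and from 29000001 to 30000000 held 98 and 84 CDT2 peaks beside 61 and 14 islands. On chromosome 7 from 61000001 to 62000000, 61 CDT2 peaks lay beside 5 islands, and 8.20% of them met one. The last 3 of these 4 bins lay within 1 Mb of the largest region-free stretch of their chromosome, and the bin on chromosome 11 did not.

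Among the 1024 bins with at least 20 islands and 20 origins, the ratio of CDT2 to CUL4A had a median of 0.409 (quartiles 0.283 and 0.560), and 36 bins exceeded 1. The highest ratios were 2.78 in the bin of chromosome 11 above, 2.46 on chromosome 10 from 38000001 to 39000000, 2.23 on chromosome 1 from 152000001 to 153000000, and 2.12 on chromosome 12 from 13000001 to 14000000. The last of these was rich in origins, with 84, and 83.6% of its 55 CDT2 peaks met one. By contrast, 8.47% of the 59 CDT2 peaks in the bin of chromosome 10 met an origin. The lowest ratios were 0 on chromosome 11 from 133000001 to 134000000, with 22 islands, 0.0476 on chromosome 16 from 21000001 to 22000000, 0.0612 on chromosome 21 from 45000001 to 46000000, and 0.0619 on chromosome 22 from 50000001 to 51000000. The last 2 of these held 98 and 97 islands and 6 CDT2 peaks each, and all of those peaks lay on islands. Chromosome 11 thus carried both the highest and the lowest ratio.

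Crowding of CDT2 went with CUL4A up to a point. In bins with 1 to 5 CDT2 peaks, 41.9% of the peaks met an island, in bins with 11 to 20 the share was 59.9%, and in bins with 21 to 30 it was 65.6%. In the 93 bins with 31 to 100 peaks it was 65.1%, within the interval of the class before (64.4 to 66.7%). H3K9me3 at CDT2 was lowest in these most crowded bins, at 36.9% (35.4 to 38.5%), against 42.9% to 45.4% in the 4 less crowded classes.

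An island that met CDT2 nearly always met a single peak. Exactly 1 CDT2 peak was found in 12994 islands and 2 or more in 1451, which is 10.0% of the islands with CDT2 (9.57 to 10.5%). There were 233 islands with 3 or more and 25 with 5 or more, and the highest number was 21. The mean over islands with CDT2 was 1.12 peaks. Seen from the receptor, 16243 of the CDT2 peaks with CUL4A met 1 island and 1 peak met 3.

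Wider islands did not hold CDT2 in proportion to their length. The share with CDT2 was 24.5% (23.8 to 25.2%) among islands of up to 1000 bp, 23.03% over 1000 to 2000 bp and 24.4% over 2000 to 4000 bp. It was 32.0% over 4000 to 8000 bp, 39.8% over 8000 to 16000 bp and 58.7% (53.1 to 64.2%) in the 298 islands above that. Over the same classes the number of CDT2 centres per 10 kb of island went from 3.57 to 0.520. A narrow island was thus almost as likely to meet CDT2 as one of 4000 bp, with the peak covering more of it: CDT2 covered 17.2% of the length of the narrowest class and 6.46% of islands over 2000 to 4000 bp.

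**Figure D2:**
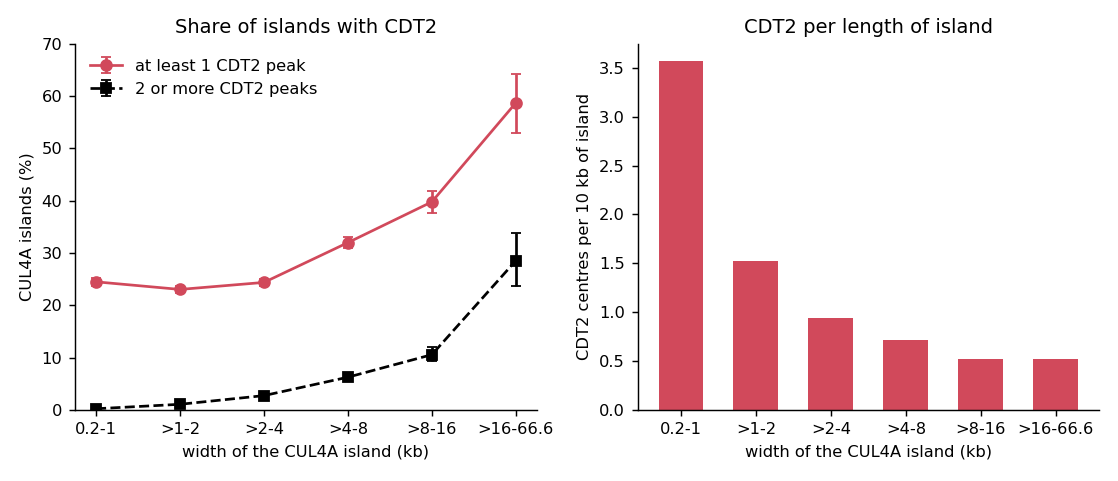
Left: percentage of CUL4A islands with at least 1 and with 2 or more CDT2 peaks by width of the island in kb, with Wilson 95% intervals. Right: CDT2 centres per 10 kb of island in the same classes. The share with CDT2 stays between 23.03% and 24.5% up to 4 kb and reaches 58.7% in the widest islands, while CDT2 per length goes from 3.57 to 0.520.

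Where several CDT2 peaks shared an island they stood close together. The 1782 neighbouring pairs within an island had a median gap of 636.5 bp (quartiles 203 and 1591 bp). Islands with 2 or more peaks were wider, with a median of 4600 bp against 2000 bp for islands with 1 peak, so marks were compared among islands over 4000 to 8000 bp. There, H3K9me3 was found at 79.5% (75.8 to 82.8%) of the 513 islands with 2 or more peaks and at 63.0% (60.9 to 65.0%) of the 2117 with 1 peak. The origin share was 92.2% and 92.1% in these groups, and the H3K4me3 share 25.5% (21.95 to 29.5%) and 21.97% (20.3 to 23.8%), with overlapping intervals for both. At like width, H3K9me3 thus differed with the number of CDT2 peaks beyond counting error. Of CDT2 peaks with CUL4A, 52.8% met H3K9me3 themselves, so an island with more of them had more chances to meet the mark. The counting thus favours this direction, and its part in the difference was not tested.

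The islands with the most CDT2 peaks were 4, by rule. The island on chromosome 4 from 49093201 to 49159800 was 66600 bp wide and met 21 CDT2 peaks, 6 H3K9me3 peaks and no U2OS origin or H3K4me3 peak. It lay 0.5004 Mb from the largest region-free stretch and also met regions of all 3 lists from HCT116 cells. On chromosome 21, the island from 10772401 to 10812600 met 9 CDT2 and 9 H3K9me3 peaks and the island from 10833401 to 10840200 met 8 and 2. The island on chromosome 2 from 1525801 to 1542000 met 8 CDT2 and 5 H3K9me3 peaks and was not near such a stretch. None of these 4 islands met a U2OS origin, and all 4 met regions of every HCT116 list. Over all islands, 67.0% met an HCT116 RepID KO origin, 7.45% an HCT116 WT SKP2 peak and 8.01% an HCT116 RepID KO SKP2 peak.

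Within islands, CDT2 was spread over most of the width and was sparser at the edge only. Positions were measured in islands of at least 3000 bp, which held 6949 CDT2 centres in 5561 islands. The distance from the island centre to its edge was divided into 5 equal parts, so an even spread gives the same share in each. From the centre outward, CDT2 centres fell at 21.0% (20.01 to 21.9%), 20.7%, 19.9%, 20.7% and 17.8% (16.9 to 18.7%). The median distance to the nearest edge was 1292 bp. Of the CDT2 peaks meeting 1 island of any width, 70.4% lay wholly inside it, 26.3% crossed an edge and 3.32% covered it.

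Origins showed a centre and CDT2 did not to the same degree. Of 14321 origin centres in islands of this width, 26.7% (25.9 to 27.4%) lay in the innermost part and 14.3% (13.7 to 14.9%) in the outermost. Origins were called by SICER on the same grid as the islands. They are wider than CDT2 peaks, with medians of 2400 and 554 bp, and the part of grid and width in this contrast was not tested. H3K9me3 centres, at 20.7% and 17.7%, were placed as CDT2 was, within the intervals. The strongest CDT2 peaks were sparser at the edge than the weakest. In the highest of the 5 score classes, 22.9% (21.2 to 24.8%) of centres lay innermost and 13.2% (11.8 to 14.7%) outermost, and in the lowest class 18.99% (16.7 to 21.5%) and 21.4% (18.95 to 24.01%). Stronger peaks are wider (medians of 803 and 439 bp in these classes), and the part of width in this was not tested. CDT2 centres with H3K9me3 lay outermost in 15.4% (14.2 to 16.6%) and those without it in 20.4% (19.1 to 21.9%).

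**Figure D3:**
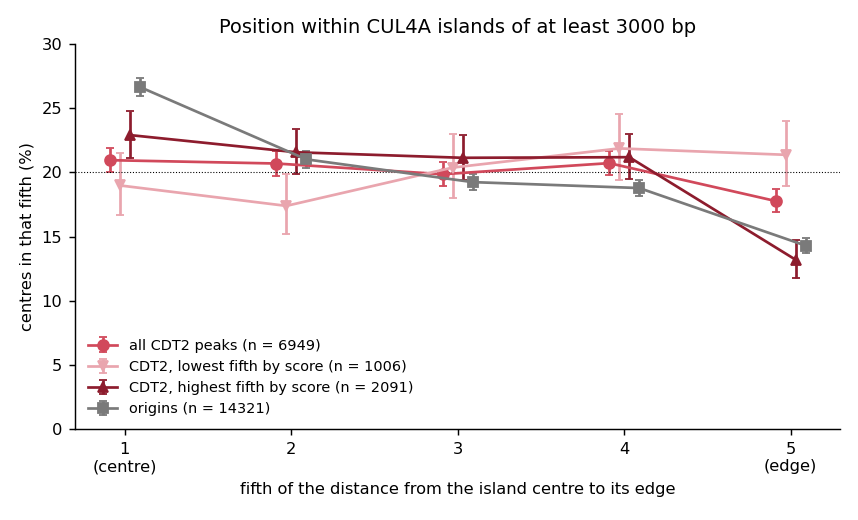
Percentage of centres in each of 5 equal parts of the distance from the centre (1) to the edge (5) of CUL4A islands of at least 3000 bp, with Wilson 95% intervals; the dotted line is an even spread. Origins lean towards the centre (26.7%), the strongest CDT2 peaks are sparse at the edge (13.2%), and the weakest CDT2 peaks show no decrease there (21.4%).

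Neighbouring CUL4A islands stood closer than neighbouring CDT2 peaks. The gap to the next region of the same list had a median of 12600 bp for CUL4A (quartiles 3600 and 39400 bp) and 38300.5 bp for CDT2 (11527 and 102734 bp). Gaps over 100 kb made up 10.9% of CUL4A gaps and 25.7% of CDT2 gaps. Over chromosomes, the CUL4A median ran from 5200 bp on chromosome 22 to 34200 bp on chromosome 4, and the CDT2 median from 20911 bp on chromosome 20 to 130188 bp on chromosome 13. The median was 42254 bp for H3K4me3, 27179 bp for H3K9me3 and 6400 bp for origins. The order of all these medians is that of the number of regions in the lists, apart from CUL4A and H3K9me3, which have similar numbers.

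CDT2 alone had very short gaps. Of its gaps, 4.64% were at most 600 bp, whereas the smallest CUL4A gap was 800 bp, which the joining of SICER windows fixes. With CDT2 peaks up to 600 bp apart joined in the same way, 26419 remained and their median gap was 41794 bp. The CDT2 median thus stayed above the CUL4A median after the same joining.

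**Figure D4:**
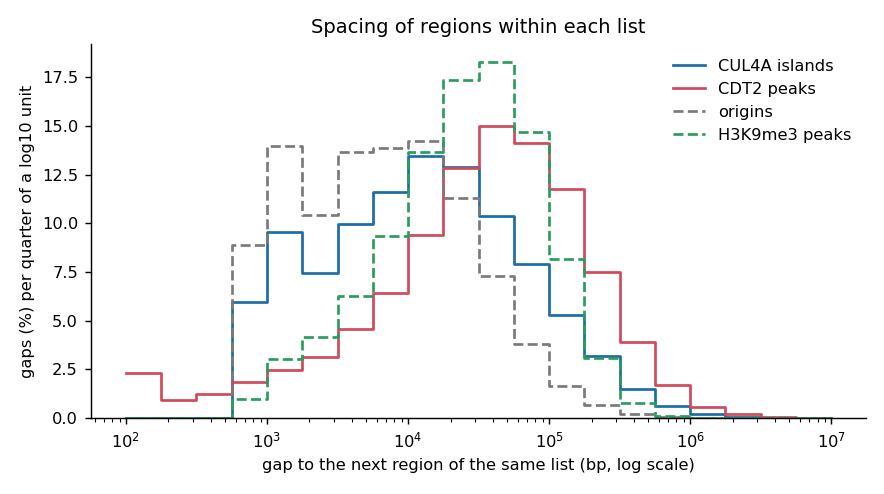
Percentage of gaps to the next region of the same list against gap length in bp on a log scale, in steps of equal width on that scale, for CUL4A islands, CDT2 peaks, origins and H3K9me3 peaks; gaps under 100 bp are counted in the first step. CUL4A gaps are spread from 800 bp upward with a median of 12600 bp, and CDT2 gaps gather at longer distances with a median of 38300.5 bp and a small group of gaps at or under 600 bp.

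Regions of one list without the other were rarely a near miss. CDT2 peaks without CUL4A had a median distance of 17234 bp to the nearest island, 3.14% lay within 1 kb and 11.5% over 100 kb away. Islands without CDT2 had a median distance of 23475 bp to the nearest CDT2 peak, and 1.40% lay within 1 kb.

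Islands with CDT2 tended to follow one another. If an island had CDT2, the next island along the chromosome had it in 30.1% of 14437 cases (29.4 to 30.9%). If it had none, the next had it in 24.5% of 41258 cases (24.0 to 24.9%), a difference of 5.68 points (Newcombe 95% interval 4.83 to 6.54). The difference was 7.77 points (5.76 to 9.83) for islands up to 2 kb apart, 5.72 points (4.06 to 7.41) over 2 to 10 kb, 5.16 points (3.71 to 6.63) over 10 to 50 kb and 4.49 points (2.67 to 6.34) over 50 kb. The nearest class exceeded the farthest by 3.28 points (normal 95% interval 0.541 to 6.03), a comparison added after the values had been seen, which covers counting error only. After an island with CDT2, the share was 30.5% up to 2 kb and 30.3% over 50 kb. After an island without it, the share was 22.7% (21.8 to 23.7%) and 25.8% (24.9 to 26.7%). The change with distance thus lay in the islands without CDT2.

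Origins were found at 69.8% of islands and 62.9% of CDT2 peaks, H3K4me3 at 16.2% and 9.61%, and H3K9me3 at 33.2% and 43.4%. H3K9me3 was thus the mark that CDT2 met more often than CUL4A did, although CDT2 peaks are narrower and a wide region meets other regions more easily. The H3K9me3 peaks had a median width of 322 bp. Per Mb of full length, region-free sequence included, they were densest on chromosome 19, with 27.3 per Mb. Their median gap was smallest on chromosome 22, at 17824 bp. Whether they lie in heterochromatin was not tested. To avoid comparing widths of different lists, each list was divided by the presence of the other.

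Of the 3 features, H3K9me3 differed most between islands with and without CDT2. It was found at 59.4% of islands with CDT2 and 24.1% of those without, a difference of 35.3 points (34.4 to 36.2), with the same sign on 22 of 22 chromosomes and values from 28.4 on chromosome 14 to 42.2 on chromosome 22. The difference held within classes of width, at 52.5% against 20.7% in the narrowest class. It held as well within classes of island score, at 47.5% against 20.2% in the weakest class and 69.6% against 33.0% in the strongest.

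H3K4me3 did not follow. It was found at 16.6% of islands with CDT2 and 15.98% without, a difference of 0.651 points (-0.0453 to 1.36), positive on 14 of 22 chromosomes and from -5.19 on chromosome 5 to 9.81 on chromosome 19. Within score classes the sign was not constant. In the weakest islands H3K4me3 was at 5.01% (4.13 to 6.07%) with CDT2 and 10.96% (10.3 to 11.6%) without, and in the strongest at 27.5% (26.2 to 28.8%) and 23.6% (22.6 to 24.7%). In the classes between, from weaker to stronger, the shares were 8.34% and 13.6%, 12.1% and 15.8%, and 17.2% and 18.4%, the last pair with overlapping intervals. The mark was thus lower with CDT2 in 4 of the 5 score classes and higher in the strongest, so among score classes the pooled difference has the sign of the strongest only. By width the sign changed as well. H3K4me3 was at 9.29% with CDT2 and 11.4% without in the narrowest class, 18.8% and 16.8% in the class before the widest, and 25.9% and 23.3% in the widest.

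The origin difference depended on island strength. Origins were found at 77.2% of islands with CDT2 and 67.2% without, a difference of 9.97 points (9.15 to 10.8), with the same sign on 21 of 22 chromosomes. Chromosome 21 was the exception, at -12.3 points. In the weakest islands the shares were 49.0% and 41.0%, and in the strongest 92.2% (91.4 to 92.9%) and 96.1% (95.6 to 96.6%), the opposite sign. By width the origin share was higher with CDT2 in all 5 classes. It was 57.9% and 45.8% in the narrowest class and 93.2% and 91.9% in the widest, the last pair with overlapping intervals. With only the stronger 50% of both lists the difference was 0.0120 points (-0.960 to 0.951), so it ended there.

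Divided by CUL4A, the CDT2 peaks differed in all 3 features. With and without CUL4A, origins were found at 74.5% and 46.5% (difference 28.0 points, 26.9 to 29.2), H3K4me3 at 13.8% and 3.73% (10.0 points, 9.40 to 10.7) and H3K9me3 at 52.8% and 30.2% (22.5 points, 21.4 to 23.7). Each difference had the same sign on 22 of 22 chromosomes and in all 5 score classes. The origin difference was smallest on chromosome 21, at 4.75 points. CDT2 peaks off the scaffold still met origins in 38.5% of the weakest and 48.8% of the strongest class, whereas H3K4me3 was at 3.41% and 4.77% in these classes.

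**Figure D5:**
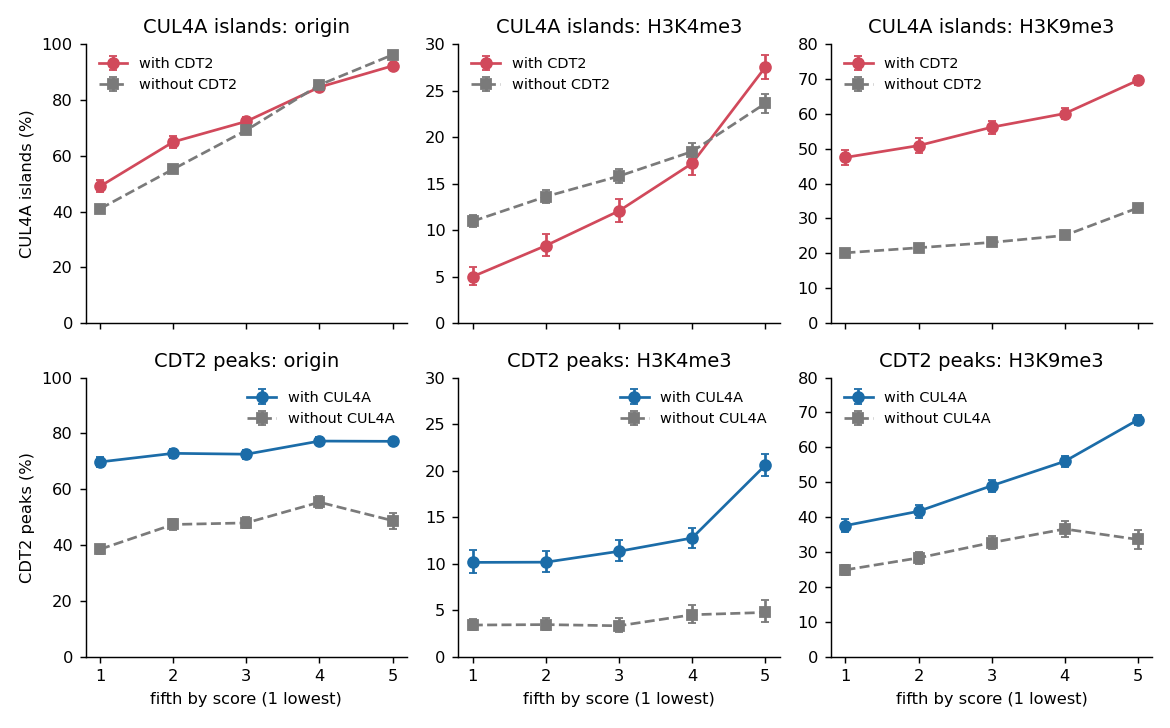
Percentage of regions that meet an origin, H3K4me3 or H3K9me3 by score class within the list (1 lowest, 5 highest), with Wilson 95% intervals. Upper row: CUL4A islands with and without CDT2, whose H3K9me3 lines stay apart (47.5% against 20.2% to 69.6% against 33.0%) while the origin and H3K4me3 lines cross. Lower row: CDT2 peaks with and without CUL4A, whose lines stay apart in all 3 panels.

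Taking the 3 features in combination, the presence of H3K9me3 went with CDT2 on islands of every kind. CDT2 was found at 13.4% (12.8 to 14.0%) of the 11242 islands with none of the 3 features, at 17.8% of the 19836 with an origin only and at 14.2% of the 5055 with an origin and H3K4me3. With H3K9me3 these became 36.3% for H3K9me3 only, 48.0% with an origin and 55.5% (53.5 to 57.4%) for islands with all 3. The reverse counting gave a wider range: 31.7% (30.6 to 32.9%) of the 6454 CDT2 peaks with none of the features met CUL4A, and 93.0% (91.5 to 94.3%) of the 1260 with all 3 did. An origin alone gave 58.9% and H3K9me3 alone 53.1%.

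CDT2 and H3K9me3 peaks were nearly concentric where they met. The distance between their centres had a median of 94 bp (quartiles 36 and 255 bp) for the 8570 CDT2 peaks with CUL4A and 71 bp (31 and 179 bp) for the 3462 without. For H3K4me3 the medians were 285 bp and 341 bp over 2236 and 427 peaks. H3K4me3 peaks are wider than H3K9me3 peaks, with medians of 1902 and 322 bp, and the part of width in these distances was not tested.

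Counted by origin, the scaffold was common and the receptor mostly accompanied it. Of 126050 origins, 10909 (8.65%) met both proteins, 26680 (21.2%) CUL4A only, 4548 (3.61%) CDT2 only and 83913 (66.6%) neither. In 97.0% (96.7 to 97.3%) of the origins with both, a CDT2 peak of the origin also met an island, so the proteins shared a site and not just a wide origin. Of the 5325 CDT2 peaks at an origin but on no island, 10.8% (9.99 to 11.7%) had an island elsewhere in the same origin.

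These classes of origin differed in their marks. H3K9me3 was found at 63.1% of origins with both proteins, 39.4% with CDT2 only, 26.4% with CUL4A only and 9.99% with neither. H3K4me3 was found at 21.1%, 6.55%, 20.5% and 7.97% in the same order. H3K4me3 therefore went with CUL4A whether or not CDT2 was present, and H3K9me3 was highest with both. Origins with CUL4A were wider, with medians of 3400 bp with both and 3200 bp with CUL4A only, against 2200 bp in the other classes, and the part of width in these shares was not tested.

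The strongest single sites close the comparison. The CDT2 peaks with the highest scores on islands were on chromosome 6 from 168634223 to 168638749, with a score of 3100, on chromosome 10 from 133183473 to 133185385, with a score of 2007, and on chromosome 4 from 49107010 to 49115263, with a score of 1848. The first 2 met an origin, the third lay in the island with 21 CDT2 peaks, and none met H3K4me3. The strongest CDT2 peaks off the scaffold scored less, 595 on chromosome 6 from 169114603 to 169116373, 585 on chromosome 12 from 131530145 to 131532629 and 563 on chromosome 10 from 42354935 to 42367330. The peak on chromosome 10 from 42354935 was 12396 bp wide and lay 0.000134 Mb from the largest region-free stretch. All 6 peaks met an HCT116 RepID KO origin, as did 44.2% of all CDT2 peaks and 65.5% of the strongest score class.

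The strongest islands without CDT2 were on chromosome 1 from 564401 to 571200 with a score of 33968, on chromosome 4 from 49280601 to 49333800 with 33185, and on chromosome 8 from 86726401 to 86762000 with 10487. All 3 met a U2OS origin and an HCT116 WT SKP2 peak, and the island on chromosome 4 met 10 H3K4me3 peaks. That island lay 0.3264 Mb from the largest region-free stretch and met 10 HCT116 WT and 13 HCT116 RepID KO SKP2 peaks. Among islands without CDT2 in the strongest score class, 96.1% met a U2OS origin and 15.9% an HCT116 WT SKP2 peak. The 3 islands were 6800, 53200 and 35600 bp wide, against a median of 5400 bp in that score class. The highest score of any island with CDT2 was 8708, in the island on chromosome 4 with 21 CDT2 peaks. Although islands with CDT2 had the higher median score, the 3 highest CUL4A scores belonged to islands without it. Whether scores this high reflect binding was not tested.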

How the data were processed

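ChIP-Seq and nascent-strand regions were used as the authors deposited them, and no reads were used here. The submitters' processing notes name MACS, SICER and hg19. CUL4A islands and origins were called with SICER at a false discovery rate of 1e-05 and 0.01. The score of the deposited CUL4A, origin, CDT2 and SKP2 regions has no stated scale and ranked regions within a list only. In the deposited histone lists the authors wrote fold enrichment, a ratio over the control, and p and q values as −log10. Depth is unknown. Inputs had no list.

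An overlap was at least 1 bp. Shares carry Wilson intervals and differences Newcombe intervals. With 1 sample per list no test between conditions was made. Members, lists and comparisons were chosen with earlier results of these data known. Named were the 4 bins with most islands, the 4 with most CDT2 peaks, the 4 highest and 4 lowest ratios among bins with at least 20 islands and 20 origins, the 4 islands with most CDT2 peaks, and the 3 highest scores among CDT2 peaks on islands, CDT2 peaks off islands and islands without CDT2. Genes and sequences were not assigned, since the reference tables used here are of another build. Overlap counting was tested on simulated data. Python 3.11.15, NumPy 2.4.6, pandas 2.3.3, SciPy 1.17.1, statsmodels 0.14.6 and matplotlib 3.10.9 were used.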

Additional observations from a re-analysis of the deposited data

Results flagged for a closer look

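Lists from HCT116 cells were used above for named sites, with the shares over each list beside them, and regions of them lay on many U2OS islands. Origins of HCT116 RepID KO cells were found at 62.9% of islands with CDT2 (Wilson 95% interval 62.1 to 63.7%) and 68.5% of islands without (68.0 to 68.9%), a difference of -5.56 points (-6.46 to -4.65), which is the opposite sign to that of U2OS origins. SKP2, the receptor of another cullin ligase, was mapped in the same line. Its peaks in HCT116 WT cells were found at 13.9% of islands with CDT2 and 5.19% without, a difference of 8.70 points (8.11 to 9.31). SKP2 peaks of HCT116 RepID KO cells were found at 13.6% and 6.07%, a difference of 7.51 points (6.91 to 8.12). Both SKP2 differences had the same sign on 22 of 22 chromosomes, and the origin difference on 20 of 22. These lists come from another cell line, and the cause was not tested.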

How the results depend on the processing

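Of 85 values recomputed under alternatives for 14 results, 37 moved within the 95% interval of the reported value and 48 beyond it, and no difference whose interval lay above 0 changed sign. Differences below are in percentage points, with minus without the other protein. When 50% of a region had to be covered, 7.21% of islands had CDT2, the island differences were 1.78 for origins, -3.32 for H3K4me3 and 26.3 for H3K9me3, and the CDT2 peak differences 7.18 for H3K4me3 and 16.04 for H3K9me3. When regions up to 1 kb apart counted as meeting, the shares were 27.0% of islands and 59.9% of CDT2 peaks, the island differences 8.84 for origins and 34.2 for H3K9me3, and the CDT2 differences 10.7 for H3K4me3 and 23.9 for H3K9me3. With 1 kb around each centre, the shares were 20.3% and 42.5%, the island origin difference 12.5, and the CDT2 differences 15.8 for origins, 4.99 for H3K4me3 and 18.0 for H3K9me3.

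With the stronger 50% of both lists, the shares were 22.6% and 50.6%, the Spearman correlation over bins 0.778, the share of islands with 2 or more peaks 8.62%, the median gaps 15200 bp for CUL4A and 65354.5 bp for CDT2, the island differences 0.0120 for origins, 3.67 for H3K4me3 and 38.5 for H3K9me3, and the CDT2 differences 24.99, 13.7 and 18.4. Without chromosome 19, 57.7% of CDT2 peaks met an island and their H3K4me3 difference was 9.14. With histone peaks of −log10 q of at least 2, the H3K4me3 difference of CDT2 peaks was 9.37 and the H3K9me3 difference of islands 33.3. The Spearman correlation was 0.769 in bins of 500 kb, 0.829 in bins of 2 Mb, 0.832 for covered length and 0.782 in bins with a region of any U2OS list. Joining CDT2 peaks up to 600 bp apart gave a median gap of 41794 bp and 5.81% of islands with 2 or more peaks. Centre to centre, the CUL4A median was 15800 bp.

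The outermost share of CDT2 centres was 16.4% in islands of at least 2000 bp, 16.4% for the stronger 50% of CDT2 peaks and 10.8% for CDT2 peaks wholly inside the island, whose innermost share was 23.4%. The last value is fixed in part by its construction, since a peak that crosses the edge is left out. Leaving out 5 Mb beside the largest region-free stretch, an alternative chosen after the data were seen, gave shares of 25.5% and 59.4% and a Spearman correlation of 0.796. The cause of the other movements was not tested.

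No paired analysis was possible because each list rests on 1 sample and the labels give no replicate numbers. No replicate was left out, for the same reason. Gene and sequence context was not run. The depth is unknown, and a region outside a list is one its caller did not call.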
